A study of Homo sapiens with 30 samples.

Results

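RNA-seq was read from 24 libraries of PANC-1 hybrid tumoroids whose synthetic cells carried PD-1, alone or with a second immune protein, and these were set against the 6 libraries of both negative controls. The 24 libraries are every sample whose title names DSLBs with PD-1, out of 30 in all. The titles alone decided membership, but the comparison was chosen with earlier results of these data known. PANC-1 is a cell line from a human pancreatic ductal adenocarcinoma (PDAC), here wild type, grown as tumoroids that self-assemble in suspension. DSLBs (droplet-supported lipid bilayers) are synthetic cells made of an oil droplet of silicone wrapped in a fluid lipid membrane, and hybrids are tumoroids that took up DSLBs during assembly. In the 8 protein groups the DSLBs carried PD-1 alone or PD-1 plus 1 of the co-stimulatory proteins CD2, CD27, CD40L and ICOS or of the co-inhibitory proteins CTLA4, LAG3 and TIGIT, and each group held 3 biological replicates. The controls were 3 libraries of DSLB-free tumoroids and 3 libraries of hybrids with plain, non-functionalized DSLBs. The proteins were recombinant and bound through a His tag to nickel-chelating lipids, and the ICOS protein also carried an Fc tag. No group carried a protein without PD-1. PD-1 itself, the presence of any His-tagged protein and the coupling step therefore cannot be told apart in what follows. The labels give no batch or date, so a difference in handling between the sides cannot be set apart either.

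PD-1 is an inhibitory receptor of T cells that binds PD-L1 and PD-L2 on tumor cells, so here the synthetic cell took the place of the T cell. Tumoroids are avascular, and cells short of oxygen turn on glycolytic and vascular genes through the HIF transcription factors, while cells short of amino acids or with stressed mitochondria turn on biosynthetic genes through ATF4. PDAC cells also deposit matrix and hold each other through cadherins and desmosomes, and their entry into S phase is driven by E2F transcription factors. The question asked of the data was which transcripts differed whenever the DSLBs carried PD-1, whatever the second protein was.

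Depth ran from 21.9 to 60.5 M expected counts, with medians of 41.0 M in the 24 protein libraries and 36.9 M in the 6 controls. All 9 PANC-1 markers were measured. Their summed level in TPM, a unit of transcript abundance scaled by length, was 9794 to 10670 with protein and 7673 to 8544 in the controls. KRT8, VIM, KRT18 and KRT19 carried most of this sum, and the markers did not all move together. EPCAM was at 46.7 to 63.4 TPM with protein and 63.1 to 78.9 TPM in the controls, and MUC1 at medians of 20.4 and 24.5 TPM. KRT7 and CD44 had medians close to those of the controls. Transcripts of T cells summed to at most 1.23 TPM. CD8A, the only T cell marker that passed the filter, was at 32 to 122 counts and up to 1.22 TPM. CD3E was at 0 in all 30 libraries. Of the fibroblast markers only COL1A1 was abundant, at 130.3 to 249.8 TPM with protein and 299.6 to 402.3 TPM in the controls without overlap, while COL1A2 did not exceed 0.21 TPM. Of the myeloid markers CD68 was at 22.5 to 50.4 TPM with protein and 23.5 to 32.7 TPM in the controls, while CD14 did not exceed 1.6, LYZ 0.23 and CSF1R 0.13 TPM in any protein library. A set of 4 libraries stood apart from the other replicates of their group, namely PD-1/LAG3 replicate 3, DSLB-free replicate 2, PD-1/CTLA4 replicate 2 and the first replicate of PD-1 alone. On the first principal component of log2 CPM, counts scaled to a common library size, which held 33.7% of the variance, the 24 protein libraries lay between −2.1 and 19.4 and the 6 controls between −30 and −17.3, without overlap.

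**Figure D1:**
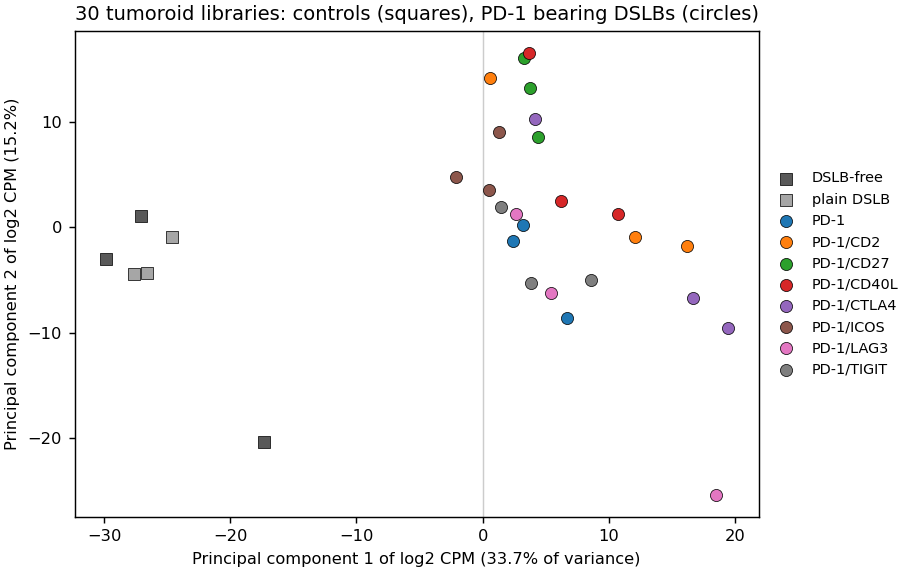
Principal components 1 and 2 of log2 CPM over the 30 libraries, with controls as squares and protein groups as circles in one color per group. The 6 controls sit to the left of all 24 protein libraries on component 1, and the protein groups intermix.

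Protein on the DSLBs went with a broad shift of the transcriptome. Of 18424 genes tested with edgeR, 9291 (50.4%) differed between the mean of the 8 protein groups and the mean of both controls at an adjusted p under 0.05, 4769 higher (25.9%) and 4522 lower (24.5%). In 8452 of them (45.9% of the genes tested) all 8 groups moved in the same direction, 4329 higher (23.5%) and 4123 lower (22.4%), and in the other 839 the directions were mixed. The 8 comparisons share the 6 control libraries, which builds in part of this sharing. Most of these changes were small, with a median absolute log2 fold change of 0.309. At least a 2-fold change was found in 479 of the 8452 genes, 208 higher and 271 lower, and at least 1.5-fold in 1667.

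Tested one group at a time against the same controls, 5623 genes were called with PD-1 alone (30.5%). With a second protein the number was 6814 for CD2 (37%), 5907 for CD27 (32.1%), 5876 for CD40L (31.9%) and 7406 for CTLA4 (40.2%). It was 4700 for ICOS (25.5%), 6732 for LAG3 (36.5%) and 5635 for TIGIT (30.6%). In each of the 8 groups separately, 2311 genes (12.5%) were called in one direction, 1207 higher (6.55%) and 1104 lower (5.99%). Only 173 of the 8452 genes were called in none of the groups on its own. In 817 genes (4.43%) all 24 protein libraries lay above all 6 controls, and in 942 (5.11%) all lay below.

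**Figure D2:**
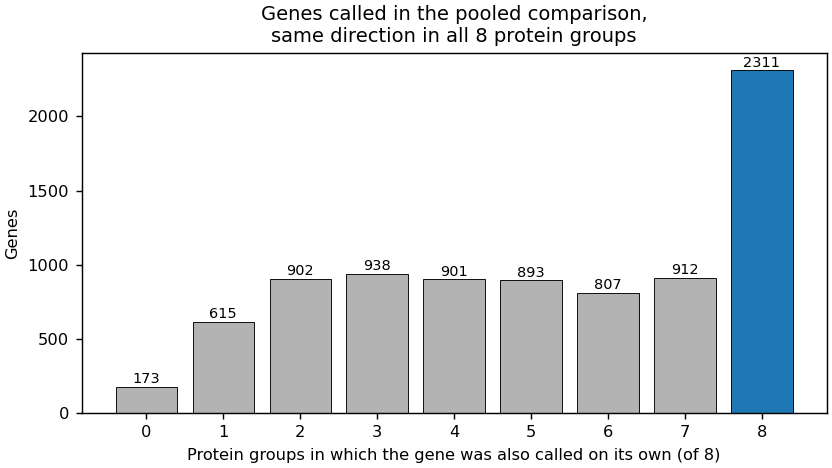
Number of genes (vertical axis) against the number of protein groups in which the gene was also called on its own (horizontal axis, 0 to 8), for the 8452 genes called in the pooled comparison with 1 direction in all 8 groups. The bar at 8 holds 2311 genes and the bar at 0 holds 173.

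The controls differed little from each other. Between plain DSLB hybrids and DSLB-free tumoroids 2 genes (0.0109%) were called with edgeR, against 1123 at an unadjusted p under 0.05. SCG2, a secretory granule protein, was at 11.9 ± 0.609 and 7.43 ± 0.355 CPM (SD, n = 3 each, edgeR adjusted p = 0.0214). WLS, the carrier that exports Wnt proteins, was at 38.1 ± 1.42 and 30.6 ± 0.695 CPM (edgeR adjusted p = 0.025). Both were chosen after their values were seen. Set against DSLB-free tumoroids alone, 7201 genes (39.1%) were called in the 24 protein libraries, and against plain DSLB hybrids alone 6791 (36.9%). Of the 8452 shared genes 7255 kept one direction in all 8 groups against each control, and 5183 were called against each. Among the 8 protein groups an F test called 530 genes (2.88%), of which 219 belonged to the 8452.

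Gene length moved with the comparison. In 8 bins of 2303 genes each by effective length, the median log2 fold change of protein over control fell steadily from 0.17 in the shortest genes to −0.17 in the longest, whereas between the controls it stayed within −0.02 and 0.02. Each group of genes below is therefore given also after a smooth trend with length was removed from every library, wherever this changed the count by more than 1.5 times. What the trend reflects was not tested. Counts of list members below are to be read beside the 25.9% of all genes tested that were higher and the 24.5% that were lower.

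Among protein-coding genes with a mean of at least 50 counts and 1 direction in all 8 groups, the largest increase was in ALDOC, the aldolase isoform of brain and a glycolytic enzyme (chr17:28573115-28576948, GRCh38). ALDOC was between 65.6 and 105 CPM in the 24 protein libraries, with a median of 84.3, and between 20.4 and 28.6 CPM in the 6 controls, with a median of 23.5. The groups did not overlap, and the log2 fold change was 1.82 ± 0.07 (SE, edgeR adjusted p = 3.11e-17), ranging from 1.65 with TIGIT to 1.99 with CD40L. CCL5, a chemokine that draws T cells, spanned 4.96 to 7.63 CPM with protein and 1.47 to 2.73 CPM without. Its increase of 1.63 was the second largest and its lowest protein library stood above its highest control. APLN, which encodes the vascular peptide apelin, rose by 1.56, PFKFB4, an enzyme that sets the rate of glycolysis, by 1.53, and TGM2, the tissue transglutaminase that cross-links matrix proteins, by 1.51. TGM2 was at 56.8 to 102 CPM with protein and at 24.8 to 31.8 CPM without.

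The other large increases were in SBK2 (1.45), the mitochondrial folate enzyme ALDH1L2 (1.42), the small GTPase RASD2 (1.39), TMEM74B (1.36) and the glycogen-targeting phosphatase subunit PPP1R3G (1.35). All were called in each of the 8 groups. A uniform increase was found in RRAGD, a Rag GTPase that couples amino acid supply to mTORC1. RRAGD was at 30.7 to 37.2 CPM with protein and 12.6 to 15.2 CPM without, and its log2 fold change of 1.24 varied between 1.16 and 1.29 over the groups (edgeR adjusted p = 1.3e-19). DHRS3, a retinaldehyde reductase, rose by the same 1.24.

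Among the same kind of genes the largest decrease was in NTS, which encodes the peptide neurotensin (chr12:85874295-85882992). NTS lay between 0.969 and 2.02 CPM in the protein libraries and between 7.24 and 10.2 CPM in the controls. Its log2 fold change was −2.64 ± 0.09 (SE, edgeR adjusted p = 9.03e-19), which left it at 0.161 of the control level. CP, the copper-carrying ferroxidase ceruloplasmin (chr3:149162410-149221829), fell by 1.93 on the log2 scale. CP was at 18.9, 23.5 and 31 CPM at the lowest, median and highest protein library, against 80.8, 95 and 99.2 CPM in the controls. VAV3, an exchange factor of small GTPases, fell by 2.11, DIPK1C by 2.00, the adhesion molecule IGSF9 by 1.94 and MECOM, a transcription factor of progenitor cells, by 1.92. COL14A1 (−1.76) and COL2A1 (−1.65) encode collagens, EPHB6 (−1.68) an ephrin receptor and TNC (−1.67) the matrix protein tenascin C. In all 10 genes the 24 protein libraries lay below the 6 controls.

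**Figure D3:**
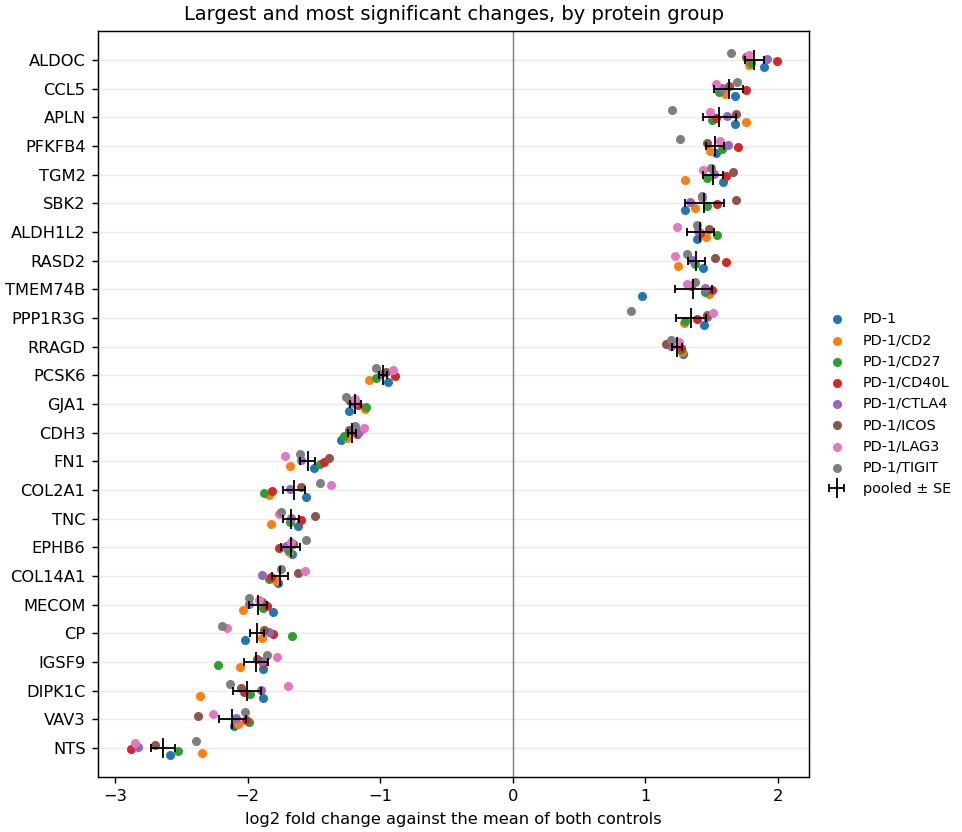
log2 fold change against the mean of both controls (horizontal axis) of the protein-coding genes with the largest or most significant pooled changes, with one point per protein group and the pooled value ± SE in black. The points of a gene lie on one side of 0 throughout, from −2.64 pooled for NTS to 1.82 for ALDOC, and the groups of a gene spread over less than the change itself.

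Genes of the hypoxia response were higher as a group. Of 24 tested, 21 were higher and 2 lower, where 25.9% and 24.5% of all genes were, with a median log2 fold change of 0.67 beside 0.01 over all genes tested, and the medians of the 8 groups ran from 0.51 to 0.79. In each group separately 16 were called higher. PFKFB4 was at 40.2 to 66.8 CPM with protein and 14.2 to 23.3 CPM without. PDK1, a kinase that blocks the oxidation of pyruvate in mitochondria, was at 45.1, 59.3 and 65.6 CPM at the lowest, median and highest protein library and at 21.2, 25.9 and 27.8 CPM in the controls (log2 fold change 1.22, edgeR adjusted p = 3.32e-16). BNIP3, a receptor for the removal of mitochondria, rose from 156.5 to 184.4 CPM in the controls to 300.4 to 427.3 CPM with protein, a 2-fold change. NDRG1, a stress-induced growth regulator, rose by 0.92. The 2 members that fell were the glucose transporter SLC2A3 (−0.92), at 0.366 to 1.17 CPM with protein, and EGLN3 (−0.36), a prolyl hydroxylase that marks HIF for degradation, both chosen after their values were seen. ALDOC is not on this list.

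The promoters of ALDOC and BNIP3, from RefSeq (GRCh38.p14), are shown as the 2 with the most matches of 4 searched for the hypoxia element, all of genes that rose in all 8 groups. They were chosen after the matches were counted. Each runs 5′ to 3′ from 250 bases before the start of the gene to 30 after it, at chr17:28576866-28577145 and chr10:131981894-131982173, both on the minus strand. Capitals mark the core letters of the HIF binding element, ACGTG or GCGTG, on either strand.
ALDOC: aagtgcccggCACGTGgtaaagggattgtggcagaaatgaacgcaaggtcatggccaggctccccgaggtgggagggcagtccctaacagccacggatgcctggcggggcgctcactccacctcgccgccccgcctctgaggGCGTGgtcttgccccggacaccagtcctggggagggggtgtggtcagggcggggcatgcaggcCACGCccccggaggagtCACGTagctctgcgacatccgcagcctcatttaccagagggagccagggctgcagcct
BNIP3: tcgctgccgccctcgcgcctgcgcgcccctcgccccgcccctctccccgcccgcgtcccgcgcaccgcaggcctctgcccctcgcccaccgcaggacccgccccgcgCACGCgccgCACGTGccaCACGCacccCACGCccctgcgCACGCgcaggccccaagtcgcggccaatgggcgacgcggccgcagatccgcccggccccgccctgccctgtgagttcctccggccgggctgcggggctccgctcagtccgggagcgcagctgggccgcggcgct
ALDOC held 5 matches and BNIP3 6, with CACGTG counted on both strands, whereas the same window held 1 match in PFKFB4 and 0 in PDK1. Only 1 window was read per gene, so that letters near any other start of a gene were not counted. These short letters occurred in 46.2% of the 27305 promoters in the table and in 59.7% of the 12372 that matched a tested gene. They were in 59.6% of the promoters of genes higher in all 8 groups, in 58.8% of those lower in all 8, and in 17 of the 20 matched promoters of the hypoxia list (85%). A match is a description of the letters only.

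Genes of the ATF4 and unfolded protein response were mostly higher. Of 21 tested, 14 were higher and 5 lower (median 0.42), and 12 were called higher in each group separately. VLDLR, a lipoprotein receptor, rose by 1.30 from a control range of 1.97 to 3.17 CPM to 5.15 to 7.50 CPM. DDIT3, the stress factor CHOP, rose by 0.92, SESN2, a leucine sensor that restrains mTORC1, by 0.91, and the asparagine synthetase ASNS by 0.68, all with no overlap between protein and control libraries. The 5 that fell, SDF2L1, MANF, CRELD2, PDIA4 and HSP90B1, are folding factors of the endoplasmic reticulum, with log2 fold changes of −0.37 to −0.16, and they were named after their values were seen. Only MANF and PDIA4 among them were lower in all 8 groups, and the directions of SDF2L1, CRELD2 and HSP90B1 were mixed. Against plain DSLB hybrids alone the list had 13 members higher and 2 lower.

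Of 17 NRF2 target genes, which answer to oxidative stress, 12 were higher and none lower by edgeR (median 0.26), or 10 and 1 with the length trend removed. HMOX1, the heme oxygenase, rose by 1.18 from 43.4 to 71.8 CPM in the controls to 108 to 151 CPM with protein (edgeR adjusted p = 3.72e-12). TXNRD1, a thioredoxin reductase, rose by 0.41 and the ferritin light chain FTL by 0.46. Among 11 metallothioneins and metal carriers, 2 were higher and 3 lower, or 2 and 5 with the length trend removed. SLC40A1, the iron exporter ferroportin, fell by 1.22 and the transferrin receptor TFRC by 0.51, whereas the zinc importer SLC39A10 rose by 0.44.

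Of 23 genes of cholesterol and fatty acid synthesis, 18 were higher and 1 lower (median 0.22). SCD, the desaturase that makes monounsaturated fatty acids and the most abundant of these named, was at 4776 to 7073 CPM with protein and 3095 to 4356 CPM without (log2 fold change 0.60). INSIG1 and IDI1 rose by 0.49 and 0.44. The list had a median of 0.15 between plain DSLB hybrids and DSLB-free tumoroids, none called, and against plain DSLB hybrids alone 11 were higher and 2 lower in the protein libraries. SCARB1, a receptor for high-density lipoprotein, rose 2-fold (log2 fold change 1.00), from 309 to 354 CPM in the controls to 551 to 810 CPM. ANGPTL4, a lipase inhibitor also counted in the hypoxia list, rose by 1.22, and PLIN2, a coat protein of lipid droplets, by 0.44. Over all 18 lipid droplet and lipid response genes 6 were higher and 7 lower, or 3 and 5 with the length trend removed.

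**Figure D4:**
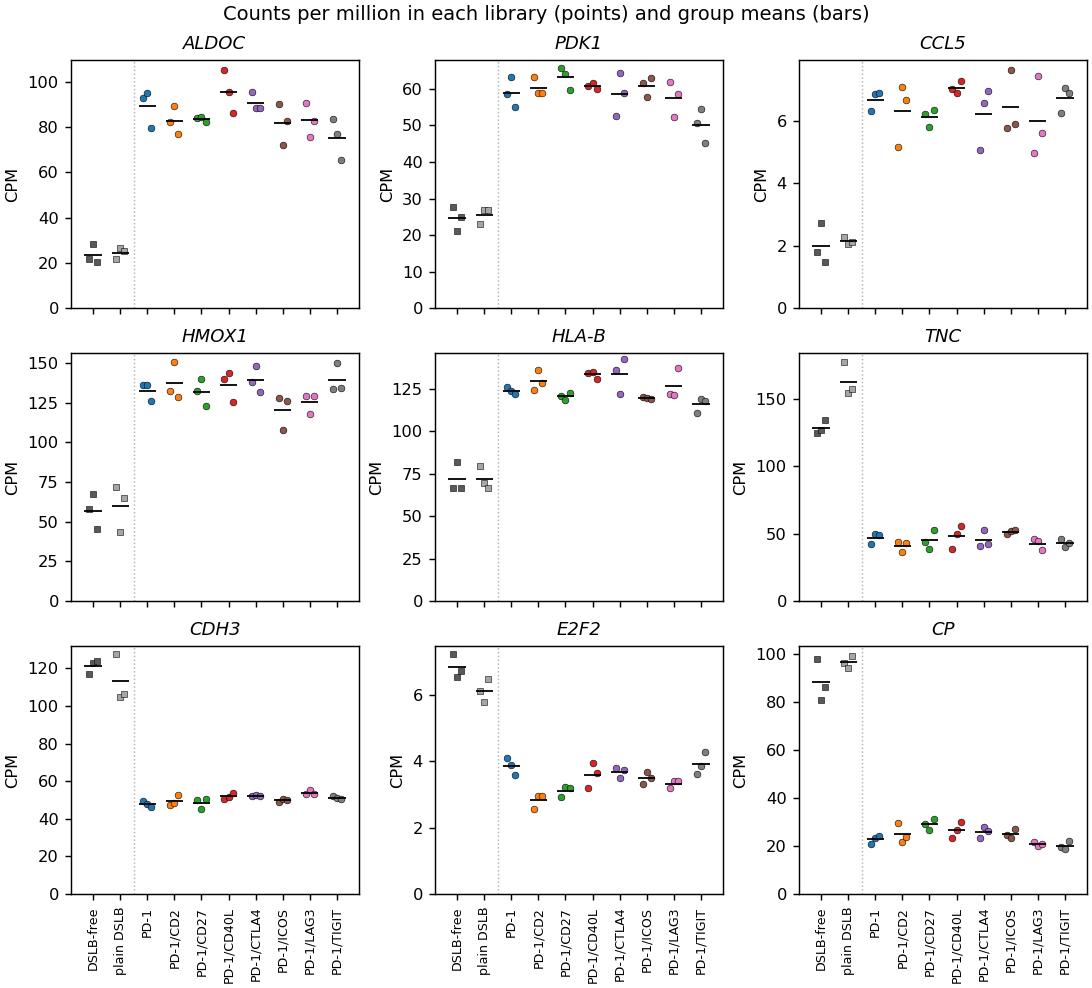
CPM of 9 genes in every library (points, 3 per group) with group means as bars and the vertical axis from 0, controls to the left of the dotted line. ALDOC, PDK1, CCL5, HMOX1 and HLA-B are higher and TNC, CDH3, E2F2 and CP lower in all 24 protein libraries than in all 6 controls.

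Interferon response genes and the MHC class I pathway were higher as well. Of 21 interferon response genes, 16 were higher and 2 lower (median 0.41), or 13 and 1 with the length trend removed. IFIT2, an RNA-binding antiviral protein, was at 24.2 to 35.1 CPM with protein and 12.7 to 17.7 CPM without (log2 fold change 0.89). IFIT3 rose by 0.86, the guanylate-binding protein GBP2 by 0.79 and IFIT1 by 0.73. Of 15 MHC class I and peptide loading genes, 12 were higher and none lower by edgeR (median 0.39), or 11 and 1 with the trend removed. HLA-B was at 111 to 142 CPM with protein and 66.4 to 81.9 CPM without (log2 fold change 0.80, edgeR adjusted p = 1.77e-14), and B2M, the light chain shared by all class I molecules, at 502 to 662 and 331 to 424 CPM. HLA-E rose by 0.39 and the immunoproteasome subunit PSMB8 by 0.59. Class I genes resemble each other and their reads may be split among them by the estimation.

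Chemokines and NF-kB targets did not share one direction. Of 12 chemokine and cytokine genes tested, 5 were higher and 4 lower. Beside CCL5, IL11 (0.55) and IL18 (0.46) rose, whereas CXCL1, a chemokine for neutrophils, fell by 0.75, from 4.35 to 5.41 CPM in the controls to 2.27 to 3.67 CPM. Of 15 NF-kB subunits and targets, 7 were higher and 3 lower, and 6 and 5 with the length trend removed. ICAM1, the ligand of leukocyte integrins, rose by 0.57, TNIP1 by 0.35 and NFKB2 by 0.32, while BIRC3, an inhibitor of apoptosis, had −0.34, or −0.21 with the trend removed.

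Replication and mitosis genes were lower with protein. Of 24 G1/S and DNA replication genes, 23 were lower and none higher by edgeR (median −0.45), and 17 were called lower in each group separately. The group medians ran from −0.50 to −0.30. E2F2, a driver of S phase entry, was at 2.56, 3.49 and 4.28 CPM at the lowest, median and highest protein library and at 5.79, 6.5 and 7.24 CPM in the controls (log2 fold change −0.90). E2F1 and CDC6, a loader of the replicative helicase, both fell by 0.71, and MCM4, a helicase subunit, by 0.62, each without overlap. MCM5 was the member that did not pass (0.09, edgeR adjusted p = 0.0528). Of 21 mitosis genes, 19 were lower and 1 higher (median −0.42). TOP2A, the topoisomerase of dividing cells, fell from 211 to 274 CPM in the controls to 125 to 184 CPM, the kinetochore gene CENPF fell by 0.73, and the spindle genes TPX2 and KIF11 by 0.44 each, with KIF11 at −0.28 when the length trend was removed. UBE2C (0.36) was the member that rose, and like MCM5 it was named after its values were seen. In bulk RNA, fewer dividing cells and less of these transcripts per cell cannot be told apart.

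Of 37 replication-dependent histone genes tested, 18 were lower and 3 higher (median −0.39), and 27 were lower and none higher by edgeR with the length trend removed. H3C4 fell by 1.11, H4C8 by 0.85 and H1-2 by 0.59. Histone genes are near copies of each other and most of their transcripts lack poly(A), so that their values depend on how reads were shared and on a library step that no source used here gives.

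The promoters of E2F1 and CDC6, whose genes fell together in all 8 groups, are shown for the E2F element in the same windows, at chr20:33686356-33686635 on the minus strand and chr17:40287629-40287908 on the plus strand (RefSeq, GRCh38.p14). Capitals mark TTTCCCGC, TTTGGCGC, TTTCGCGC or TTTGCCGC on either strand.
E2F1: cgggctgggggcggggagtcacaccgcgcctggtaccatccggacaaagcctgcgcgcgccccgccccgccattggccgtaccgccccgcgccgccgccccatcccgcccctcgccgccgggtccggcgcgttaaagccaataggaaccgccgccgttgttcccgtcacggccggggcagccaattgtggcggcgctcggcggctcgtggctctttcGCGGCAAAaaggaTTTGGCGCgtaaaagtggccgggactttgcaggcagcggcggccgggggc
CDC6: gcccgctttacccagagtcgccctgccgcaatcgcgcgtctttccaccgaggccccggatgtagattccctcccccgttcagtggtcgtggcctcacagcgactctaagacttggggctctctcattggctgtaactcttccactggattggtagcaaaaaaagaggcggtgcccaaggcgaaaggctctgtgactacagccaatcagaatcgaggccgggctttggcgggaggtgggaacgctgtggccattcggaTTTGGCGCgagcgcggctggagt
E2F1 held 2 matches and CDC6 1, and the window of E2F2, not shown, also held 1. The element was in 3.15% of all promoters in the table and 4.83% of those of tested genes. It was in 6.79% of the promoters of genes lower in all 8 groups and 3.41% of those higher, in 12 of the 19 matched promoters of the G1/S list (63.2%) and in none of the 20 of the hypoxia list.

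Matrix genes were mostly lower. Of 25 extracellular matrix genes, 15 were lower and 5 higher (median −0.37, and −0.17 with the length trend removed, when 14 were lower and 6 higher). TNC was at 36.4 to 56 CPM with protein and 125 to 177 CPM without. FN1, fibronectin, fell from 57.7 to 72.7 CPM in the controls to 16.1 to 25.5 CPM (log2 fold change −1.55, edgeR adjusted p = 7.12e-18), and COL12A1 fell by 1.20. In the other direction SPARC, a collagen-binding glycoprotein, rose by 0.72. The fibroblast marker COL1A1, also on this list, was lower by the same test (log2 fold change −0.68), while none of the other 5 fibroblast markers exceeded 1.51 TPM in any library.

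Of 19 cadherin and junction genes, 12 were lower and 2 higher (median −0.16), but 7 and 3 with the length trend removed (median −0.05). CDH3, P-cadherin (chr16:68636189-68727468), shared with CP the smallest adjusted p over all genes. CDH3 was at 45.5, 50.5 and 55.1 CPM at the lowest, median and highest protein library and at 105, 120 and 128 CPM in the controls. Its log2 fold change was −1.21 ± 0.03 (SE, edgeR adjusted p = 3.3e-21), between −1.29 and −1.12 in the 8 groups. E-cadherin, CDH1, fell by 0.65, and the desmosomal genes PKP2 and DSC2 by 0.89 and 0.88. GJA1, a connexin of gap junctions, fell by 1.19, from 88.8 to 112 CPM in the controls to 40.7 to 53.1 CPM. PCSK6, a protease that matures growth factors, fell by 0.98 with a range of −1.09 to −0.89 over the groups. Of 27 integrin and focal adhesion genes, 14 were lower and 4 higher, against 6 and 7 with the length trend removed. ITGB8 fell by 0.89 and paxillin, PXN, rose by 0.23.

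Of 15 YAP targets and Hippo genes, 11 were lower and 1 higher (median −0.29). The matricellular genes CCN2 and CCN1, which follow YAP in stretched cells, fell by 0.97 and 0.60, and AXL, a receptor tyrosine kinase, was the member that rose (0.41). Of 18 Wnt and Notch genes, 10 were lower and 3 higher, or 9 and 5 with the length trend removed. JAG1, a Notch ligand, fell by 0.71, and the receptors NOTCH1 and NOTCH2 by 0.67 and 0.52. With the trend removed the receptors were at −0.42 and −0.26. Of 18 TGF-beta pathway genes, 8 were lower and 4 higher, the higher share being close to the 25.9% of all genes tested. ID3, a target of BMP signaling, fell by 0.96 and TGFBI rose by 0.36.

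Epithelial and lineage genes went both ways. Of 15 genes of the epithelial-mesenchymal state, 5 were higher and 8 lower. The ductal keratin KRT19 was at 962.5 to 1530 CPM with protein and 623.8 to 917 CPM without (log2 fold change 0.76), and KRT8 (0.44) and vimentin, VIM (0.43), rose with it while CDH1 fell. Of 13 PDAC driver and lineage genes, 3 were higher and 6 lower. The pancreatic factor PDX1 rose by 0.94, at no more than 2.16 CPM, while KLF5 fell by 0.83, FOXA1 by 0.77 and GATA6 by 1.00. FOXA1 and GATA6 were low as well, with protein group means of 1.20 to 1.59 and 0.389 to 0.574 CPM. Their control group means were 2.38 to 2.39 and 0.867 to 1.10 CPM.

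Heat shock genes were mostly lower. Of 16 tested, 12 were lower and 1 higher (median −0.19). HSPH1, a chaperone of the large heat shock protein family, fell from between 279.5 and 313.9 CPM in the controls to between 154.2 and 200.5 CPM (log2 fold change −0.77, edgeR adjusted p = 1.06e-16), and DNAJA1 fell by 0.40. Of 11 AhR pathway genes, which sense aromatic ligands, 5 were lower and 2 higher. Their target CYP1B1 was at 112 to 150 CPM with protein and 203 to 230 CPM without (log2 fold change −0.73), and the receptor AHR itself fell by 0.60 and its partner ARNT2 by 0.48 (−0.30 with the length trend removed). Of 21 immediate early and feedback genes of MAPK signaling, 6 were higher and 9 lower. ATF3 rose by 1.12 and JUND by 0.48, while the feedback inhibitor SPRY4 fell by 0.52 and the ETS factor ETV5 by 0.34.

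Of 18 JmjC histone demethylases, oxygen-dependent enzymes, 4 were higher and 9 lower, but 6 and 4 with the length trend removed. KDM3A rose by 0.64 and KDM4B by 0.50, and KDM5A fell by 0.28 (−0.14 with the trend removed). Of 37 proteasome subunits 10 were higher and 10 lower, shares close to the 25.9% and 24.5% of all genes tested, against 3 and 16 with the length trend removed, and PSMD2 fell by 0.29. Of 21 lysosome and autophagy genes 11 were higher and 1 lower, against 11 and 3 with the trend removed, led by the cholesterol carrier NPC2 (0.49).

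Ribosomal protein genes, which are short, were higher in the main. Of 82 cytosolic ribosomal protein genes, 78 were higher and none lower by edgeR (median 0.32), and 61 were higher (median 0.18) with the length trend removed. RPLP0 was at 2162 to 3198 CPM with protein and 1703 to 2008 CPM without. The 29 host genes of small nucleolar RNAs, RNAs that guide the modification of ribosomal RNA, had 16 higher and none lower by edgeR (median 0.30), and 16 and 2 with the trend removed (median 0.18), among them GAS5 (0.50) and ZFAS1 (0.62). Of 70 respiratory chain subunits of nuclear genes, 55 were higher and 1 lower, and 36 and 1 with the trend removed, and NDUFS4 rose by 0.52. Of 78 mitochondrial ribosomal protein genes, 34 were higher and 1 lower, against 10 and 7 with the trend removed.

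Mitochondrial genes took up 4.74% ± 1.14 of all counts with protein (SD, n = 24) and 4.61% ± 0.717 in the controls (n = 6). The difference was 0.13 percentage points (two-sided exact permutation test over libraries, p = 0.791), and it was −0.154 without DSLB-free replicate 2. Of the 13 mitochondrially encoded mRNAs, MT-ND6 was lower (−0.59) and none was higher by edgeR, 2 were lower with the length trend removed, and with the 4 libraries that stood apart left out 7 were lower. The median log2 fold change of the 13 mRNAs ran from −0.647 with LAG3 to 0.189 with CD40L. MT-ND6 lies on the opposite strand to most mitochondrial genes, and the strand setting of the counting is unknown here.

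**Figure D5:**
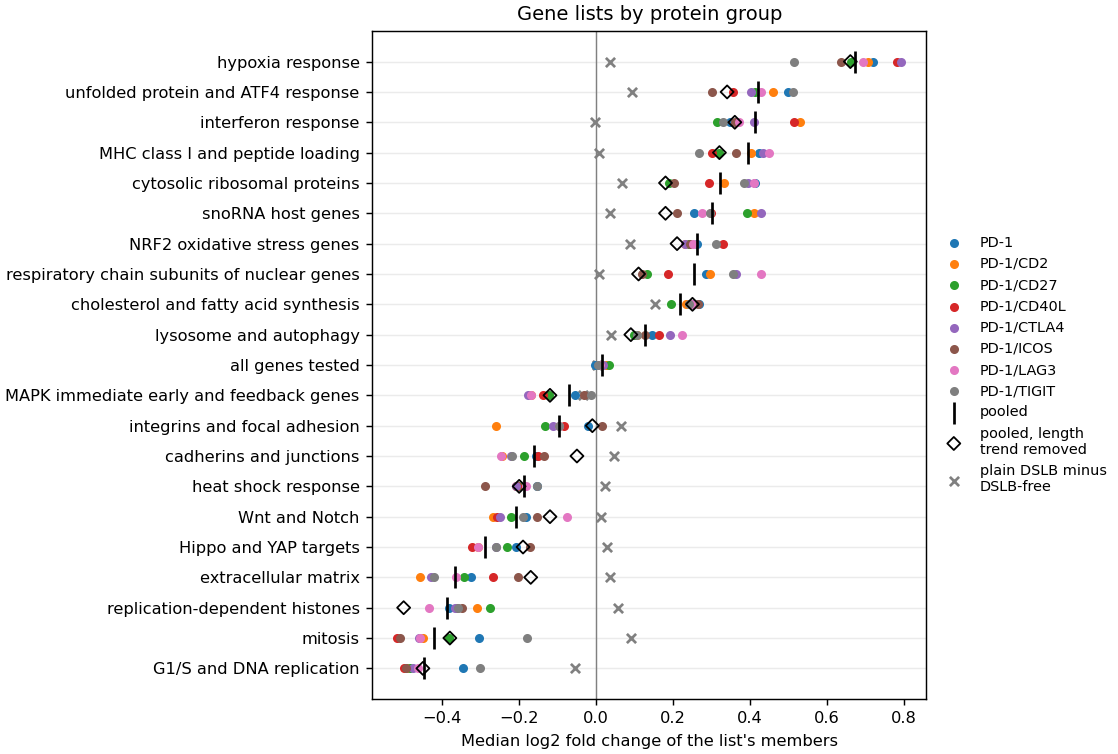
Median log2 fold change against both controls (horizontal axis) of the members of 20 gene lists and of all genes tested, with one colored point per protein group, the pooled median as a bar, the pooled median with the length trend removed as an open diamond, and plain DSLB minus DSLB-free as a cross. Hypoxia response genes lie highest (pooled 0.67) and G1/S genes lowest (−0.45). Most crosses lie near 0, but that of cholesterol and fatty acid synthesis is at 0.15 beside a pooled 0.22.

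Among genes that are not protein coding, which made up 22.2% of the genes tested, 15.8% of the shared higher genes and 8.73% of the shared lower ones were found. CRMA, a long noncoding RNA, was at 12.8 to 17.9 CPM with protein and 5.91 to 7.66 CPM without (log2 fold change 1.19), and SAP30-DT, transcribed away from the SAP30 promoter, also rose by 1.19. MAP3K4-AS1 fell by 1.29 and LINC00261 by 1.02, both without overlap. The other records that the rule names had libraries that overlapped between the sides, and with standard errors of up to 1.85 they are uncertain (RMRP 2.29, ENSG00000234648 6.11, MST1L 1.30, NUS1P1 −1.08, ENSG00000249839 −1.17, ENSG00000213240 −0.89). Of 540 antisense lncRNAs, 148 were higher and 52 lower, the higher share being close to the 25.9% of all genes tested and the lower share under their 24.5%. Of 270 divergent transcripts 86 were higher and 14 lower, or 49 and 23 with the length trend removed. The libraries were made with a directional kit, but the strand setting of the counting is unknown here, and without strand reads of a gene and of its antisense partner cannot be told apart.

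Of 431 genes named ZNF with a number, most of them zinc finger repressors, 43 were higher and 172 lower (median −0.09). ZNF503 rose by 0.95 and its antisense neighbor ZNF503-AS2 by 1.13, whereas ZNF367 fell by 0.78.

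The binding partners of the presented proteins were for the most part not detectable or shifted little. CD274, which encodes PD-L1, had between 0 and 8 counts per library with a median of 3.5, and PDCD1LG2, which encodes PD-L2, at most 1, so that neither could be tested at this depth. CD80 had at most 2 counts and CD86 at most 1, and the LAG3 ligand FGL1 1 to 11. Of the 8 partners that were tested, 5 were higher and 2 lower. LGALS3, a galectin that binds LAG3, was at 182 to 272 CPM with protein and 127 to 170 CPM without (log2 fold change 0.60), without overlap. CD40, the receptor of CD40L, was at 20.8 to 24.6 and 17.3 to 19.5 CPM (0.28), also without overlap. On the TPM scale the CD40 libraries did overlap, at 19.61 to 26.05 with protein and 18.12 to 23.79 in the controls. The CD2 ligand CD58 (0.35), the CD27 ligand CD70 (0.27) and the TIGIT ligand NECTIN2 (0.29) rose by similar amounts with overlapping libraries. PVR, the main TIGIT ligand, fell by 0.23 and NECTIN3 by 0.40. ICOSLG, the ICOS ligand, had a log2 fold change of −0.05 (edgeR adjusted p = 0.453). Each of these values is a mean over all 8 protein groups, of which only 1 carried the second protein that binds a given partner. In that group LGALS3 was at 0.43, CD40 at 0.35, CD58 at 0.44 and CD70 at 0.08. NECTIN2 was at 0.23 there, PVR at −0.27, NECTIN3 at −0.40 and ICOSLG at 0.04. With the length trend removed the pooled values were 0.18 for CD40, 0.24 for CD58, 0.14 for CD70 and 0.17 for ICOSLG.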

How the data were processed

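Tumoroids of PANC-1 were sequenced in 30 libraries, 3 biological replicates in each of 10 groups, and grouped by their sample titles. The authors made libraries with a directional kit, read 75 nt from one end, trimmed the reads (Trim Galore 0.3.3), aligned them to hg38 with STAR and deposited expected counts and TPM per gene, estimated with RSEM, with an effective length per gene. Which annotation release and strand setting they used, and whether poly(A) RNA was selected or rRNA depleted, is not given in the sources used here. Of 60483 gene records 56321 matched a symbol.

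After rounding of the expected counts to whole numbers and TMM scaling, 18424 genes passed edgeR's filter by group. edgeR 4.0.16 (R 4.3.3) fitted a mean per group with the robust quasi-likelihood test. The pooled contrast was the mean of the 8 protein group means minus the mean of the 2 control means, with Benjamini-Hochberg adjustment over all genes tested and a threshold of 0.05. The same fit gave 8 contrasts of 1 protein group each, the contrast between the controls and an F test among the protein groups. Log2 fold changes come from this fit and CPM values from the TMM-scaled libraries. Replicates varied with a biological coefficient of 0.0942, which gave median standard errors of 0.0644 in the pooled contrast and 0.0995 in contrasts of 1 group. The mitochondrial share was compared with a two-sided exact permutation test over 593775 choices of 6 libraries. On simulated data with 18154 genes, edgeR recovered 76 of 100 genes changed by 0.6 and 54 of 100 changed by 0.3 on the log2 scale in the pooled comparison, with 3 false calls. Only these genes were changed, counts were drawn independently, and no length trend or library that stood apart was built in. The simulation therefore does not give the error rate of the calls on the real data.

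Genes named are, among those called with a mean of at least 50 counts and 1 direction in all 8 groups, the 10 largest changes each way among protein-coding genes and the 5 each way among other types, the 10 smallest p-values, the 10 with the smallest largest p over the 8 groups, up to 4 members of each gene list by p, and the binding partners. The groups compared, this rule and the 43 gene lists were chosen with earlier results of these data known, so that list counts are descriptions with no test. Alternatives were DESeq2 1.42.0, limma-voom (limma 3.58.1), RLE scaling, other filters and thresholds, protein-coding genes only, removal of a length trend, each control alone, a replicate block, leaving out each library, leaving out the 4 libraries whose distance to the other replicates was over 3 times the distance between those, and, chosen after seeing the data, removal of a GC trend. The labels give no batch or date. Promoters were taken from RefSeq, and 12372 of 18397 tested symbols matched. One member of the gene lists is not reported here by name, but stays in the counts.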

Additional observations from a re-analysis of the deposited data

Results flagged for a closer look

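For 14 of the genes named, the 8 protein groups differed among themselves (F test of edgeR, adjusted p under 0.05, n = 3 libraries a group), where 2.88% of all genes tested did. In 11 of them all 8 groups lay on one side of the controls.

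CP was lower in every group, by 2.19 with TIGIT and 2.15 with LAG3 but 1.67 with CD27 on the log2 scale (adjusted p = 0.0246). SAP30-DT was higher throughout, from 0.88 with LAG3 to 1.68 with CD27 (adjusted p = 0.0143). ICAM1 ranged from 0.35 with LAG3 to 0.73 with CD40L (adjusted p = 0.0356), and TGFBI from 0.18 with LAG3 to 0.53 with CTLA4 (adjusted p = 0.0134). AHR ranged from −0.79 with CTLA4 to −0.43 with TIGIT (adjusted p = 0.033) and ARNT2 from −0.81 with CD2 to −0.31 with ICOS (adjusted p = 0.0173). MCM4 ranged from −0.72 with CTLA4 to −0.44 with TIGIT (adjusted p = 0.0286), NOTCH1 from −0.91 with CD2 to −0.36 with ICOS (adjusted p = 0.0115), and PSMD2 from −0.41 with CD2 to −0.17 with TIGIT (adjusted p = 0.033).

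MALAT1, a nuclear RNA, was at 0.03 with PD-1 alone and at 1.26 with CTLA4 (adjusted p = 0.0175). MT-ND6 was at −1.46 with PD-1 alone and at −0.04 with CD2 (adjusted p = 0.014). CFLAR, a brake on death receptors, was lower in 7 groups, down to −0.46 with LAG3, and level with the controls with CD27 at 0.00 (adjusted p = 0.0325). SCARNA7 was over 4 log2 units higher with CD2, CD27, CD40L and CTLA4 and at −2.30 with ICOS (adjusted p = 1.58e-09), and SNORD15B ranged from −0.42 with TIGIT to 3.00 with CD27 (adjusted p = 0.0175). SCARNA7 did not exceed 1.08 CPM and SNORD15B 0.557 CPM in any protein library, and both were at 0 in some.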

How the results depend on the processing

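The number of genes called in the pooled comparison (9291), the number with 1 direction in all 8 groups (8452) and the number called in each group (2311) stayed within 1.5 times under every alternative. The pooled number was 9164 with DESeq2, 8614 with the length trend removed, 9032 with no filter on low counts, 9781 without the libraries that stood apart and 10439 at a threshold of 0.1. Leaving out 1 library, it ran from 8375 (without plain DSLB replicate 1) to 9527, the number with 1 direction from 7833 to 8670 and the number called in each group from 1946 to 2622. Of 197 named genes called, 185 kept their direction and call under all 43 alternatives. ICOSLG, not called in the report, was at 0.17 with the length trend removed (adjusted p = 0.0142), and CD58 was at 0.18 against plain DSLB hybrids alone (adjusted p = 0.0712).

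Libraries of the same replicate number resembled each other little (median correlation 0.0122 over 135 pairs, 11 of 30 libraries closest to their own number). Single pairs ran from −0.606 to 0.63, with 44 over 0.1. The authors processed the set of conditions in 3 parallel replicates, and these correlations cannot tell whether the numbers pair the samples. With a replicate block 9324 genes were called in the pooled comparison, 5 between the controls and 676 among the protein groups. The calls between the controls numbered 10 at a threshold of 0.1, 17 with DESeq2, 199 with no filter and 1 each with the length trend removed, the GC trend removed and the libraries that stood apart left out. They ran from 0 to 5 leaving out 1 library, and were 0 in edgeR without 4 of the control libraries, with 796 to 1292 genes at an unadjusted p under 0.05. The calls among the 8 protein groups (530) numbered 1391 at a threshold of 0.1, 2413 with DESeq2, 3622 with no filter, 1238 with the length trend removed and 3200 without the libraries that stood apart, and ran from 228 (without PD-1/CD27 replicate 3) to 1123 (without PD-1/CTLA4 replicate 2). Leaving out any of 16 libraries moved this number by over 1.5 times. It rose to 990 without DSLB-free replicate 2 and to 876 without PD-1/CD2 replicate 1. It dropped to between 228 and 337 without PD-1 replicates 1 and 2, PD-1/CD27 replicates 1 and 3, PD-1/CD40L replicate 2, PD-1/CTLA4 replicate 1, PD-1/LAG3 replicate 2 and each replicate of PD-1/ICOS and PD-1/TIGIT. The mitochondrial difference ran from −0.154 (without DSLB-free replicate 2) to 0.262. The cause of these differences was not tested, and with 6 controls all pooled changes share the error of their mean.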

Other observations

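Genes on chromosome 10 were higher more often than those elsewhere. Of 721 tested, 36.5% were higher and 16.6% lower with protein, with a median log2 fold change of 0.088 and medians between 0.077 and 0.131 in the 8 groups. The medians of the other chromosomes lay between −0.060 (chromosome 13) and 0.063 (chromosome 15), and chromosome 10 was at 0.016 between plain DSLB hybrids and DSLB-free tumoroids. The genes IFIT1, IFIT2, IFIT3, BNIP3 and SCD, which rose, lie there, as do KIF11 and VCL, which were lower in all 8 groups. Chromosome 10 was singled out after its values were seen, and the difference between chromosomes was not tested.

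Of 14 p53 targets 4 were higher and 4 lower with protein, shares close to the 25.9% and 24.5% of all genes tested. TNFRSF10B, a death receptor, rose by 0.45 and GDF15, a stress cytokine, by 0.51, while ZMAT3 fell by 0.39 (−0.15 with the length trend removed). Of 17 apoptosis genes 3 were higher and 6 lower, among them CASP8 (0.27) and PMAIP1 (0.38) on the higher side. Of 16 endocytosis and phagocytosis genes 6 were higher and 5 lower, or 4 and 1 with the length trend removed. DNM2, the dynamin that cuts endocytic vesicles free, rose by 0.44, and LRP1, a scavenger receptor, fell by 0.57 (−0.33 with the trend removed). Of 15 kinases and regulators of the PKA and PKC families 3 were higher and 6 lower, with PRKD1 at 0.26 and PRKCH at −0.48. Of 21 N-glycan assembly genes 5 were higher and 2 lower, or 4 and 4 with the length trend removed, with the largest increase in ALG14 (0.57). The higher share in the main fit was close to the 25.9% of all genes tested.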
